A study of Arabidopsis thaliana with 8 samples.

Results

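The genes described here are 42 Arabidopsis thaliana loci whose transcripts are known to accumulate within minutes to hours of wounding, touch, oxidative stress, microbial elicitors or cold. They comprise zinc finger, WRKY, ERF and MYB transcription factors, touch and calcium genes, ubiquitin ligases, deadenylases, and the CBF and COR genes of the cold response, and were chosen by locus from a list. Array probes were linked to loci through their RefSeq transcript accessions, and 41 of the 42 genes had a probe, out of 25383 genes with a probe in all. TCH3, which encodes a calmodulin-like protein, had none matched and was not analysed here. All 41 passed the filter on dim probes, 37 of them with a probe well above background on all 8 arrays, and ZAT11, MYB15, CML38 and CBF2 on fewer.

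Levels were measured on single-colour Agilent arrays in the aerial part of seedlings aged 6 days, grown at 22 °C with 16 h of light and 8 h of darkness. The labels name no stress treatment. Each of 4 genotypes had 2 arrays: wild type (Col), the single mutants sdg8 and sdg26, and sdg8 sdg26, which lacks both functions. Both genes encode histone methyltransferases with a SET domain; the mutant alleles are not stated in the labels. The comparisons ask what the loss of each gene, and of both, does to transcript levels.

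Many of these genes belong to the immediate response of plant cells. Calcium influx and reactive oxygen species activate calcium-dependent kinases and mitogen-activated protein kinase cascades, which act on transcription factors already present, and the transcripts of the next layer of regulators then rise and decay quickly. CBF proteins bind a short element in the promoters of COR genes, whose products protect membranes and proteins during freezing and dehydration. SDG8 is known mainly for methylating lysine 36 of histone H3 over transcribed genes.

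A level below is the log2 processed signal of a gene's brightest probe minus the 75th percentile of its array, so a level has no unit and is never set against another gene's. A difference is in log2 units, with its standard error from a single limma fit of the 8 arrays together (n = 2 for each genotype). The words rose and fell are kept for genes whose Benjamini-Hochberg adjusted p, over 20615 genes tested, was under 0.05. SDG8 (symbol EFS in RefSeq) fell by 2.91 in sdg8 and by 2.33 in sdg8 sdg26 (adjusted p = 0.00154 and 0.00224), and SDG26 (ASHH1) fell by 4.63 in sdg26 and by 3.44 in sdg8 sdg26 (0.0298 and 0.00439), which fits the labels. The wild-type arrays lay on slides 1 and 2, both sdg8 arrays on slide 3, and all 4 arrays of sdg26 and sdg8 sdg26 on slide 4. Only sdg8 sdg26 against sdg26 therefore lies within a slide, and in each other comparison slide and genotype cannot be told apart. With normexp correction on the local background no gene passed the test in any comparison, and none of the calls given here held there. How the RNA sets map to arrays is not stated in the labels, and p-values thus reflect only the spread among these samples. In whole seedling tops, fewer cells of a type and less RNA per cell cannot be told apart.

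Most of the 41 measured genes had lower levels where SDG8 was lost, and few single genes passed the test. In sdg8 against wild type 32 of 41 differences were below 0, with a median of -0.27 against -0.01 over all genes. In sdg8 sdg26 against sdg26, the same loss in plants that already lacked SDG26, 36 of 41 were below 0, with a median of -0.32 against 0.01. With sdg26 against wild type the differences lay on both sides, 18 below and 23 above 0, with a median of 0.06 against 0.02.

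The test called 3 of the 41 genes, all in sdg8 sdg26 against wild type and all lower: SZF1, RRTF1 and CBF1. That share stands against 6.25% of all genes called in that comparison, in either direction. It called 0 of 41 in sdg8 against wild type (2.74% of all genes), 0 in sdg26 against wild type (0.00970%), 0 in sdg8 sdg26 against sdg26 (2.20%), 0 in sdg8 sdg26 against sdg8 (0.281%) and 0 for the interaction of both mutations (0.00485%). At an unadjusted p under 0.05 the limma counts were 13, 3, 13, 4 and 0 of 41 in those 5 comparisons, and 11 in sdg8 sdg26 against wild type. Over all 20615 genes the counts were 3436, 1848, 3087, 2837 and 923 in the same order, and 5391 in sdg8 sdg26 against wild type.

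The arrays themselves give a fuller picture of the shift. In sdg8 against wild type both mutant arrays lay below both wild-type arrays for 23 of the 41 genes, against 25.9% of all genes, and above them for 2, against 22.0%. In sdg8 sdg26 against sdg26 these numbers were 18 below (22.4% of all genes) and 1 above (23.9%), and in sdg8 sdg26 against wild type 18 below (25.4%) and 2 above (29.4%). The genotype sdg26 had 8 genes below (18.3% of all genes) and 4 above (22.9%). The genes had been listed with earlier results of these arrays known, so the counts describe them and are no test.

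**Figure D1:**
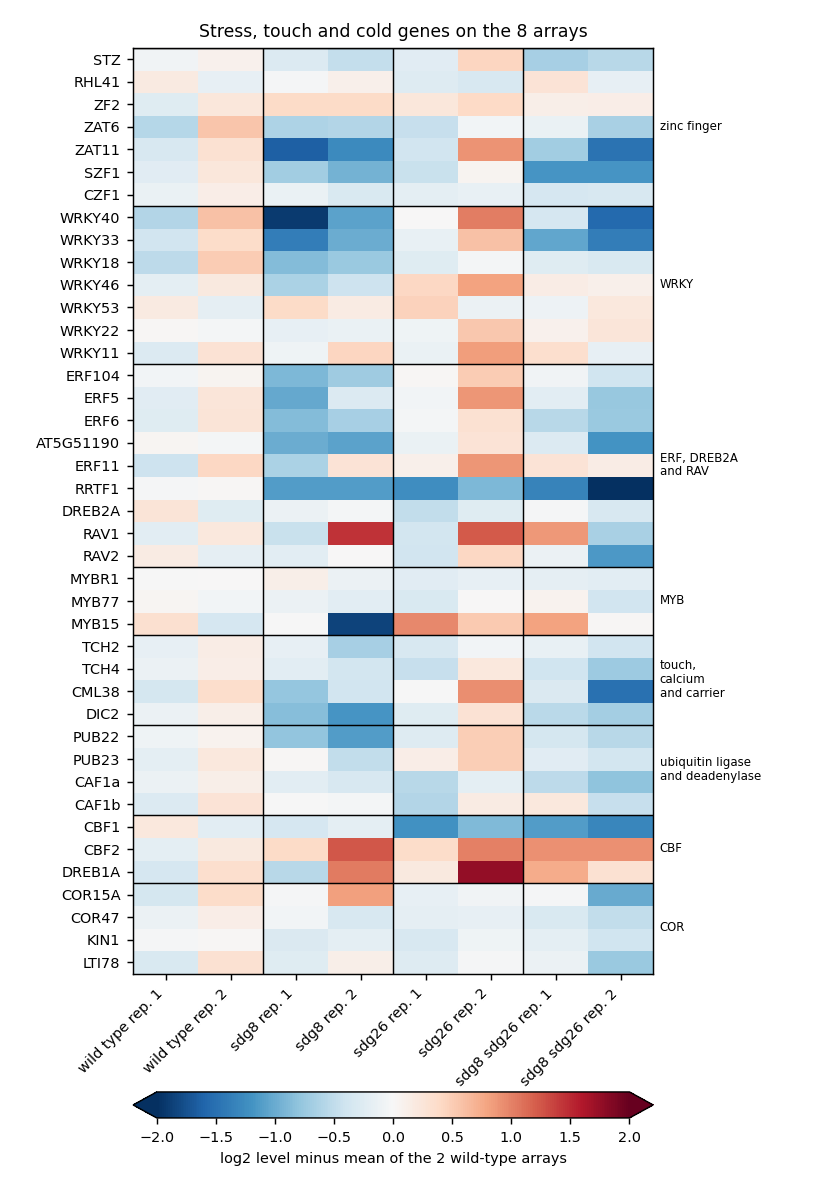
Each row is 1 of the 41 measured genes and each column 1 of the 8 arrays; colour gives the log2 level minus the mean of both wild-type arrays, from blue (2 lower) to red (2 higher), with stronger differences at the end colours. Black lines part the genotypes and the roles, and the rows of ZAT11, WRKY40, WRKY33, SZF1 and RRTF1 lie below the wild-type mean on both sdg8 and both sdg8 sdg26 arrays.

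Among the zinc finger genes, SZF1 fell in the plants lacking both methyltransferases. SZF1 (AT3G55980) encodes a CCCH zinc finger protein first described in salt stress. Its level was 0.73 and 1.18 on the wild-type arrays, 0.26 and 0.00 in sdg8, 0.50 and 1.00 in sdg26, and -0.23 on both sdg8 sdg26 arrays. Both sdg8 sdg26 arrays lay below all other arrays, and those of sdg8 below all of wild type and sdg26. The level in sdg8 sdg26 was 2.27-fold lower than in wild type (-1.18 ± 0.22, adjusted p = 0.0306). The difference was -0.82 ± 0.22 in sdg8 against wild type (adjusted p = 0.123), -0.98 ± 0.22 in sdg8 sdg26 against sdg26 (0.0885) and -0.20 ± 0.22 in sdg26 (0.808). SZF1 no longer passed when either wild-type array was left out (adjusted p = 0.0578 without replicate 1 and 0.104 without replicate 2) or when either sdg8 sdg26 array was (0.0954 and 0.11).

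ZAT11 (AT2G37430), which encodes a C2H2 zinc finger protein of the oxidative stress response, showed the largest difference of this group. Its levels were -5.93 and -5.30 in wild type, -7.24 and -6.89 in sdg8, -6.00 and -4.71 in sdg26, and -6.31 and -7.08 in sdg8 sdg26. It was well above background on neither sdg8 array, so the mean gives only a bound: at least 2.73-fold lower in sdg8 than in wild type (adjusted p = 0.183). Such bounds set the mean of the brighter genotype against a floor for the dimmer one, which on every array is the faintest signal still well above background, or the gene's own signal where that is larger.

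The other 5 zinc finger genes moved less. CZF1, the close relative of SZF1, differed by -0.22 ± 0.14 in sdg8 and -0.16 ± 0.14 in sdg8 sdg26 against sdg26, with both arrays lower each time. A further CZF1 probe gave -0.22 in sdg8 but -0.03 in sdg8 sdg26 against sdg26. STZ, also called ZAT10, a C2H2 repressor induced by salt and cold, differed by -0.38 ± 0.22 and -0.72 ± 0.22 in the same comparisons. ZAT6 showed -0.59 ± 0.37 and -0.14 ± 0.37, and RHL41 (ZAT12, of the high-light and oxidative responses) 0.03 ± 0.19 and 0.34 ± 0.19. ZF2 (AZF2, a C2H2 repressor) was the 1 zinc finger gene with both sdg8 arrays above wild type, at 0.39 ± 0.17.

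WRKY40, WRKY33 and WRKY18 held the lowest differences of the 7 WRKY genes in sdg8. Of the 7, 0 passed the test in any comparison, where 0.00485% to 6.25% of all genes were called. WRKY40 and WRKY18 encode related repressors of defence genes, and WRKY33 an activator needed for resistance to necrotrophic fungi. WRKY40 (AT1G80840) stood at -4.31 and -3.14 in wild type, -5.65 and -4.80 in sdg8, -3.73 and -2.71 in sdg26, and -4.07 and -5.28 in sdg8 sdg26. Both arrays lacking SDG8 lay below both arrays that had it, within each SDG26 background. The differences were -1.50 ± 0.59 in sdg8 (adjusted p = 0.267) and -1.46 ± 0.59 in sdg8 sdg26 against sdg26 (0.318), and replicates of a genotype stood about as far apart as 1 log2 unit.

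WRKY33 (AT2G38470) differed by -1.20 ± 0.34 in sdg8 (adjusted p = 0.138), by -1.21 ± 0.34 in sdg8 sdg26 against wild type (0.0821) and by -1.43 ± 0.34 in sdg8 sdg26 against sdg26 (0.0985). Its sdg26 difference was 0.22 ± 0.34. WRKY18 differed by -0.80 ± 0.31 in sdg8 and by -0.13 ± 0.31 in sdg8 sdg26 against sdg26. Its sdg8 value rested on the wild-type arrays, at -1.32 without replicate 1 (adjusted p = 0.0334) and -0.29 without replicate 2 (0.475). WRKY46, known from salicylate and osmotic responses, showed -0.53 ± 0.19 and -0.49 ± 0.19, and was 0.61 ± 0.19 in sdg26 against wild type, with both sdg26 arrays above wild type. A further WRKY46 probe gave 0.12 in sdg26, -0.93 in sdg8 and -0.6 in sdg8 sdg26 against sdg26. WRKY53, a regulator of senescence, WRKY22, of the flagellin response, and WRKY11, a negative regulator of basal defence, had differences between -0.15 and 0.35 from wild type in the single mutants. A further WRKY53 probe gave -0.52 in sdg8 and -1.14 in sdg8 sdg26 against sdg26, where the probe used gave 0.28 and -0.11.

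RRTF1 fell in the plants lacking both methyltransferases, and its level was also low in each single mutant. RRTF1 (AT4G34410), also named ERF109, encodes an ERF factor that links reactive oxygen and jasmonate signals to downstream genes. Its levels were -2.15 and -2.09 in wild type, -3.23 and -3.24 in sdg8, -3.37 and -3.02 in sdg26, and -3.46 and -4.14 in sdg8 sdg26. Every mutant array lay below both wild-type arrays, and both sdg8 sdg26 arrays lay below all others. The level in sdg8 sdg26 was 3.21-fold lower than in wild type (-1.68 ± 0.23, adjusted p = 0.0129). The single mutants differed from wild type by -1.12 ± 0.23 (sdg8, adjusted p = 0.0648) and -1.08 ± 0.23 (sdg26, 0.362), and the interaction was 0.51 ± 0.33 (0.995). Without wild-type replicate 1 or 2 the adjusted p in sdg8 sdg26 was 0.0641 or 0.0597, and RRTF1 passed the test in sdg8 without either sdg8 sdg26 array (adjusted p = 0.0299 both times).

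For a further 4 of the 9 ERF, DREB2A and RAV genes both arrays lacking SDG8 lay below both arrays that had it, with and without SDG26. Over all genes this held for 12.3%. AT5G51190, named ERF105 among its synonyms and known from cold, differed by -1.04 ± 0.30 in sdg8 (adjusted p = 0.142) and by -0.79 ± 0.30 in sdg8 sdg26 against sdg26 (0.278). ERF104 (AT5G61600), whose protein is a substrate of the kinase MPK6, showed -0.81 ± 0.20 and -0.50 ± 0.20. ERF6 (AT4G17490), which restrains leaf growth under water deficit, showed -0.77 ± 0.21 and -0.78 ± 0.21, and its relative ERF5 -0.66 ± 0.39 and -0.90 ± 0.39. In these 4 genes the probes used gave values from 0.06 to 0.41 in sdg26 against wild type. A further ERF6 probe gave 1.03 there and -1.54 in sdg8 sdg26 against sdg26.

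In the other 4 genes of that group the arrays with and without SDG8 overlapped in both comparisons. ERF11, a repressor of ethylene synthesis genes, differed by -0.18 ± 0.41 in sdg8 and by -0.27 ± 0.41 in sdg8 sdg26 against sdg26. RAV2, also called TEM2, a repressor of the flowering gene FT, differed by -0.10 ± 0.39 and -0.65 ± 0.39, and a further probe gave 0.04 in sdg8. DREB2A, the dehydration and heat regulator, differed by -0.08 ± 0.20 and 0.20 ± 0.20, while another of its probes gave -0.62 and -0.70. RAV1, known from growth control in the cold, had the widest spread, with differences of 0.49 ± 0.80 and -0.32 ± 0.80. Its levels were -2.55 and -0.66 on the sdg8 arrays, -2.47 and -0.88 on those of sdg26, and -1.24 and -2.75 in sdg8 sdg26.

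**Figure D2:**
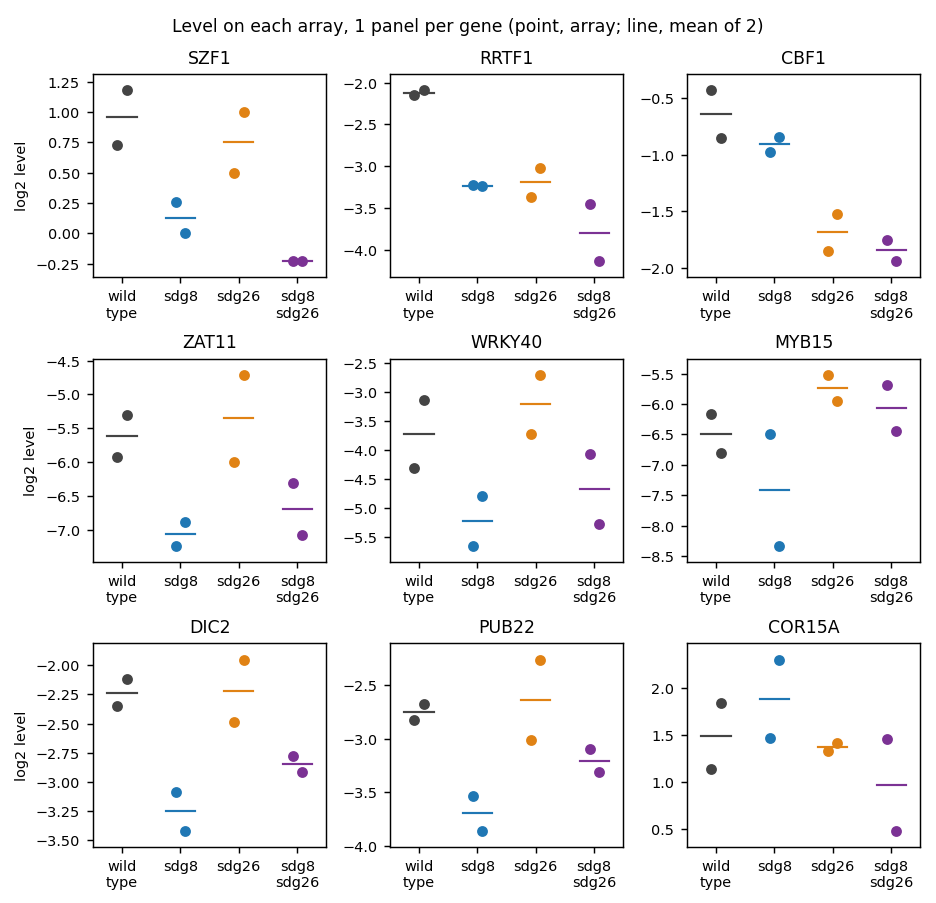
Log2 level (vertical axis, relative to the 75th percentile of the array) on each array for the 3 genes that passed the test and the gene with the largest difference in each other role group, by genotype; points are arrays and lines the mean of 2, and each panel has its own scale. RRTF1 is lowest in sdg8 sdg26 at -3.46 and -4.14, and CBF1 is low on all 4 arrays lacking SDG26.

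MYB15 (AT3G23250), which represses CBF genes and promotes lignin synthesis, gave the largest difference of the 3 MYB genes without passing the test. Its levels were -6.16 and -6.81 in wild type, -6.49 and -8.33 in sdg8, -5.52 and -5.95 in sdg26, and -5.68 and -6.45 in sdg8 sdg26. The wild-type and sdg8 arrays overlapped, and MYB15 was well above background on neither sdg8 array. For the means alone this leaves a bound of at least 1.52-fold lower (adjusted p = 0.49). The confidence interval of the difference ran from -2.33 to 0.48, on both sides of no change. A further MYB15 probe gave -1.78 in sdg8, where the probe used gave -0.93. Against wild type the further probe gave -0.06 in sdg26 and -0.33 in sdg8 sdg26, opposite in sign to the probe used (0.75 and 0.42). MYBR1 (MYB44) and MYB77, related regulators in abscisic acid and auxin signalling, differed by 0.00 ± 0.13 and -0.16 ± 0.19 in sdg8 and by -0.19 ± 0.13 and -0.16 ± 0.19 in sdg8 sdg26 against wild type, where a further MYBR1 probe gave 0.50.

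All 4 measured genes of the touch, calcium and carrier group had both sdg8 arrays below both wild-type arrays, against 25.9% of all genes, and 2 of the 4 lay below in sdg8 sdg26 against sdg26, against 22.4%. DIC2 (AT4G24570), a mitochondrial dicarboxylate carrier, had levels of -2.35 and -2.12 in wild type, -3.09 and -3.42 in sdg8, -2.49 and -1.95 in sdg26, and -2.78 and -2.92 in sdg8 sdg26. Arrays with and without SDG8 did not overlap, and sdg8 was lowest. The difference of -1.02 ± 0.22 in sdg8 missed the threshold (adjusted p = 0.0661), and that in sdg8 sdg26 against sdg26 was -0.63 ± 0.22 (0.237).

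CML38 (AT1G76650), a calmodulin-like calcium sensor, differed by -0.57 ± 0.48 in sdg8 and by -1.35 ± 0.48 in sdg8 sdg26 against sdg26 (adjusted p = 0.606 and 0.253). TCH2, the calmodulin-like protein CML24, differed by -0.41 ± 0.21 and -0.07 ± 0.21, with a further probe at 0.21 in the second. TCH4, an enzyme that cuts and rejoins xyloglucan in the cell wall, differed by -0.29 ± 0.24 and -0.43 ± 0.24.

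PUB22 stood out among the ubiquitin ligases and deadenylases in sdg8. PUB22 and PUB23 encode U-box ubiquitin ligases that dampen immune and drought signalling, and CAF1a and CAF1b deadenylases that shorten the poly(A) tails of messenger RNAs. PUB22 (AT3G52450) had levels of -2.83 and -2.68 in wild type, -3.54 and -3.86 in sdg8, -3.01 and -2.26 in sdg26, and -3.10 and -3.31 in sdg8 sdg26. The arrays with and without SDG8 did not overlap. PUB22 differed by -0.94 ± 0.25 in sdg8 (adjusted p = 0.124) and by -0.57 ± 0.25 in sdg8 sdg26 against sdg26 (0.362), whereas PUB23 differed by -0.24 ± 0.24 and -0.61 ± 0.24. CAF1a was lower than wild type by -0.67 ± 0.18 in sdg8 sdg26 (adjusted p = 0.0735), and CAF1b differed there by -0.12 ± 0.33.

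The 3 CBF genes, which lie next to each other in the genome, did not move together. CBF1 (AT4G25490) fell in sdg8 sdg26, and its level was low wherever SDG26 was lost. Its levels were -0.43 and -0.85 in wild type, -0.98 and -0.84 in sdg8, -1.85 and -1.52 in sdg26, and -1.75 and -1.94 in sdg8 sdg26. All 4 arrays lacking SDG26 lay below all 4 that had it. Against wild type CBF1 was 2.30-fold lower in sdg8 sdg26 (-1.20 ± 0.19, adjusted p = 0.0186). The sdg26 difference was -1.05 ± 0.19 (0.244) and the sdg8 difference -0.27 ± 0.19 (0.534). Its difference was -0.93 ± 0.19 in sdg8 sdg26 against sdg8 (adjusted p = 0.136) and -0.15 ± 0.19 in sdg8 sdg26 against sdg26 (0.782). The 4 low arrays are also the 4 arrays of slide 4, and CBF1 no longer passed when wild-type replicate 1 (adjusted p = 0.0819) or either sdg8 sdg26 array (0.0541 and 0.0828) was left out.

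CBF2 and CBF3 differed from CBF1 in sign. CBF2 (AT4G25470) was well above background on neither wild-type array. Its difference in sdg8 was 0.81, with a confidence interval from 0.03 to 1.59. For the means alone it was at least 1.71-fold higher in sdg8, 1.56-fold in sdg26 and 1.84-fold with both mutations (adjusted p = 0.284, 0.6 and 0.139). These bounds hold no error of sampling. CBF3 (AT4G25480), listed as DREB1A, differed from wild type by 0.24 ± 0.65, 0.97 ± 0.65 and 0.52 ± 0.65 in the same order. Its replicates lay far apart, at -5.81 and -4.22 in sdg8 and at -5.06 and -3.51 in sdg26. Whether the probes tell the 3 similar CBF transcripts apart was not tested.

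Of the 4 COR genes, targets of the CBF proteins, 0 passed the test in any comparison, where 0.00485% to 6.25% of all genes were called. Their median was -0.13 in sdg8 and -0.42 in sdg8 sdg26 against wild type, against -0.01 and 0.03 over all genes. COR15A (AT2G42540) encodes a protein of the chloroplast stroma that protects membranes in the cold. It had levels of 1.14 and 1.85 in wild type, 1.47 and 2.31 in sdg8, 1.33 and 1.42 in sdg26, and 1.46 and 0.48 in sdg8 sdg26, so that every mutant overlapped wild type. All 4 COR genes were below 0 in sdg8 sdg26 against wild type: COR15A by -0.53 ± 0.41, the dehydrin COR47 by -0.41 ± 0.15, KIN1 by -0.30 ± 0.14 and LTI78 (RD29A) by -0.43 ± 0.28. In sdg8 the 4 differences ran from -0.25 to 0.40. Further kept probes gave 0.09 and 0.36 for COR47 in sdg8 and 0.17 for LTI78. The probes used gave -0.2 and -0.07 there, so the sign in sdg8 depended on the probe. In sdg8 sdg26 against wild type the further probes gave -0.42 and -0.27 for COR47 and -0.47 for LTI78.

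**Figure D3:**
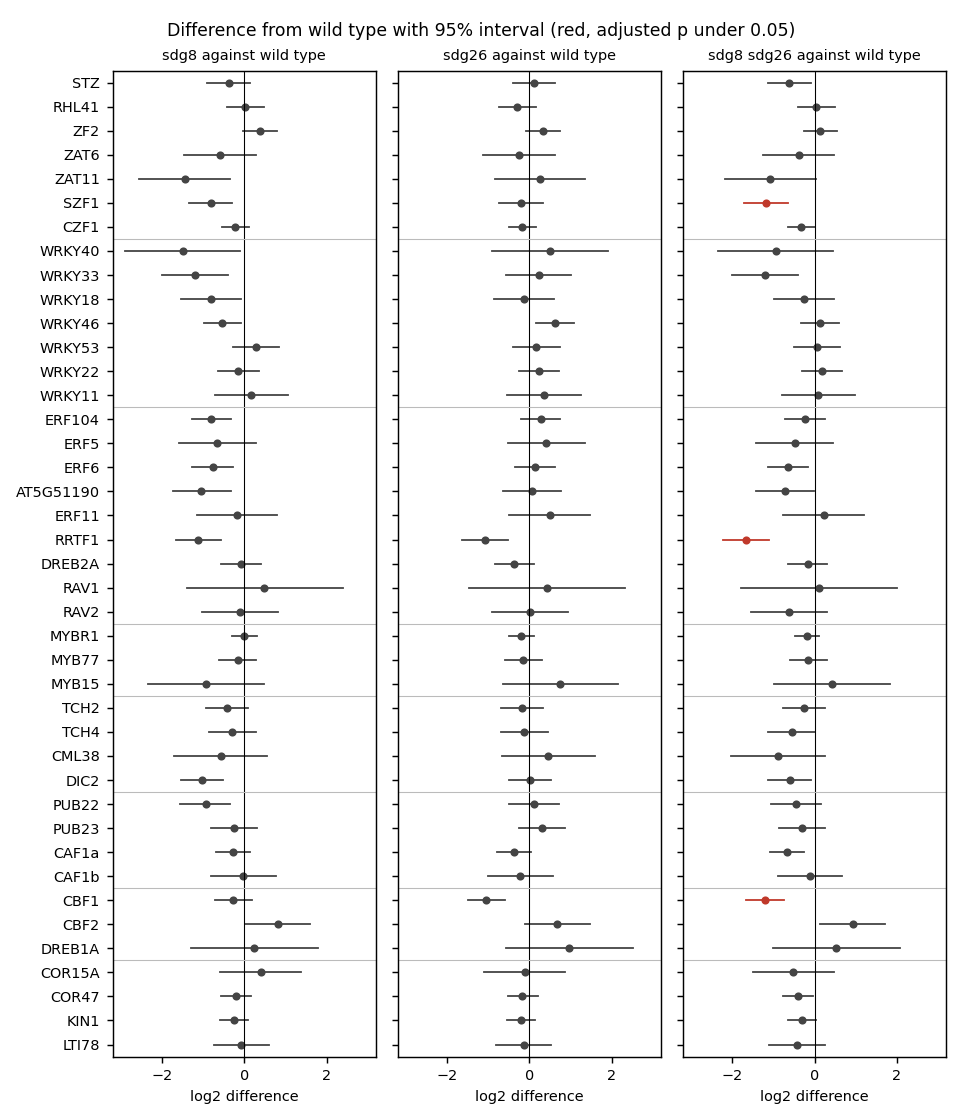
Log2 difference from wild type (horizontal axis) with its 95% interval for each of the 41 genes in the 3 mutants, in the order of their roles; red marks an adjusted p under 0.05 in the limma fit. The 3 red genes, SZF1, RRTF1 and CBF1, are all in sdg8 sdg26, at -1.18, -1.68 and -1.20.

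The loss of SDG8 can be read on 2 separate pairs of genotypes, sdg8 against wild type and sdg8 sdg26 against sdg26, which share no array. The differences of the 41 genes in the first pair correlated with those in the second at Pearson's r 0.69 and Spearman's rho 0.65, against 0.56 and 0.52 over all 20615 genes. Genes are not independent replicates, and each pair shares its arrays over all genes, so no p is given. The genes had been listed with earlier results of both pairs of arrays known, so these numbers describe them and are no test. Of the 41 genes, 30 (73.2%) were below 0 in both pairs, 3 above 0 in both and 8 on opposite sides, where 34.2% of all genes were below 0 in both.

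For 15 of the 41 genes (36.6%, against 12.3% of all genes) both arrays lacking SDG8 lay below both arrays that had it in both pairs. They were the zinc finger genes STZ, ZAT11, SZF1 and CZF1, the WRKY genes WRKY40, WRKY33 and WRKY46, the ERF genes ERF104, ERF5, ERF6, AT5G51190 and RRTF1, and CML38, DIC2 and PUB22. No CBF or COR gene was among them. Because of how the genes were listed, this count too describes them and is no test. The interaction, which tests whether the effect of one mutation depends on the other, had a median of 0.01 over the 41 genes, with values from -0.81 (RAV1 and COR15A) to 0.68.

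**Figure D4:**
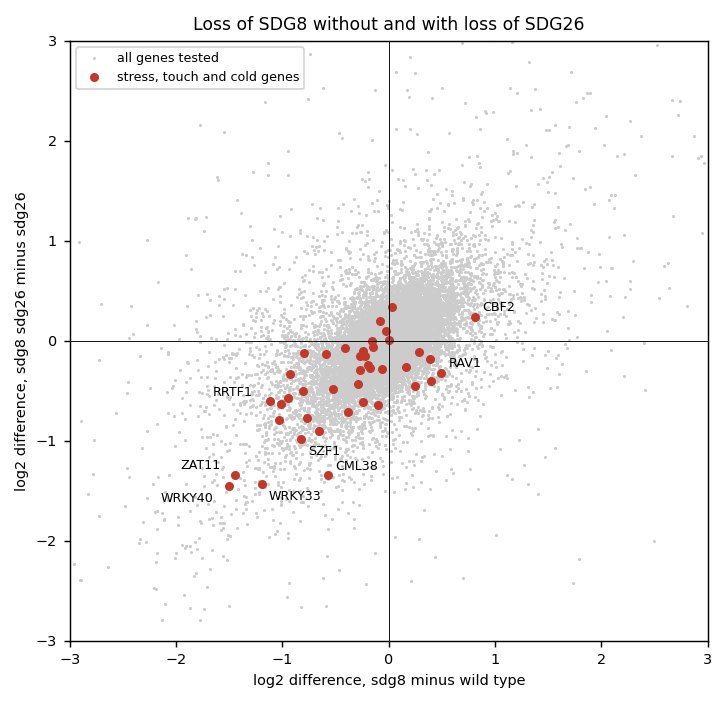
Log2 difference of sdg8 minus wild type (horizontal axis) against that of sdg8 sdg26 minus sdg26 (vertical axis) for the 41 genes (red) and all 20615 genes tested (grey); genes beyond 3 on either axis are not drawn. WRKY40, ZAT11 and WRKY33 lie lowest on the diagonal, and 30 red points are below 0 on both axes.

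The same genes also varied more between replicates of a genotype than genes in general. The median distance between the 2 arrays of a genotype was 0.41 for wild type, 0.22 for sdg8, 0.42 for sdg26 and 0.31 for the plants lacking both, against 0.20, 0.17, 0.17 and 0.20 over all genes. In 3 genotypes most of the genes differed the same way between replicates. Replicate 2 was the higher for 38 of 41 genes in sdg26 (92.7%, against 54.5% of all genes) and for 32 of 41 in wild type (78.0%, against 56.2%). In sdg8 sdg26 it was the higher for 7 (17.1%, against 42.6%). In sdg8 the genes went both ways, with replicate 2 the higher for 24 (58.5%, against 50.8%).

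Single arrays therefore moved the summary over the genes. With 1 array left out at a time, the median over the 41 genes ranged from -0.41 to -0.22 in sdg8 against wild type, from -0.66 to -0.16 in sdg8 sdg26 against sdg26, and from -0.22 to 0.29 in sdg26 against wild type. It stayed below 0 in the first 2 of these under every omission.

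Upstream of these genes, 2 kinases fell wherever SDG8 was lost. The list of kinases, receptors and oxidases that act before the rapid genes had 17 measured members. Of these 2 fell and 0 rose in sdg8 against wild type, where 2.74% of all genes were called. The same counts held in sdg8 sdg26 against wild type (6.25% of all genes) and against sdg26 (2.20%). None passed the test in the other 3 comparisons, where 0.00485% to 0.281% of all genes were called. The median of the list was -0.11 in sdg8 and -0.15 in sdg8 sdg26 against sdg26. MKK5 (AT3G21220), a kinase that activates MPK3 and MPK6, had levels of -1.40 and -1.24 in wild type, -3.24 and -3.41 in sdg8, -0.96 and -1.21 in sdg26, and -3.23 and -3.19 in sdg8 sdg26. The arrays with and without SDG8 were separated widely. MKK5 was 4.01-fold lower in sdg8 (-2.01 ± 0.14, adjusted p = 0.00276), 3.71-fold lower in sdg8 sdg26 than in wild type (0.00221) and, within 1 slide, 4.36-fold lower in sdg8 sdg26 than in sdg26 (-2.13 ± 0.14, 0.00184).

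CPK6 (AT2G17290), a calcium-dependent kinase of the immune and abscisic acid responses, had levels of -1.44 and -1.20 in wild type, -2.90 and -2.87 in sdg8, -1.89 and -1.43 in sdg26, and -2.72 and -3.13 in sdg8 sdg26. Again no array lacking SDG8 reached the level of one that had it. CPK6 was 2.95-fold lower in sdg8 (-1.56 ± 0.21, adjusted p = 0.0167), 3.04-fold lower in sdg8 sdg26 than in wild type (0.0102) and 2.40-fold lower than in sdg26 (0.034). The call in sdg8 was lost without any 1 of the 4 arrays compared (adjusted p from 0.0552 to 0.0937) and with the mean of its 2 probes (0.0716). In sdg8 sdg26 against sdg26 it was lost under 13 of 18 alternatives, and in sdg8 sdg26 against wild type without wild-type replicate 2 (0.0527).

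MKK4, the closest relative of MKK5, differed by -0.26 in sdg8 (adjusted p = 0.402). MPK3 and MPK6, the kinases that both act on, differed there by 0.03 and 0.02, and RBOHD, the oxidase of the reactive oxygen burst, by -0.11. For MKK4 and RBOHD both sdg8 arrays lay below both wild-type arrays, as for 25.9% of all genes. In sdg8 sdg26 against sdg8, MKK4 differed by 0.57, MPK3 by 0.08, MPK6 by -0.34 and RBOHD by 0.21. Their adjusted p there were 0.169, 0.919, 0.34 and 0.46 in limma. These 4 genes are named for their place in the cascade and not by the rule for named genes.

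**Figure D5:**
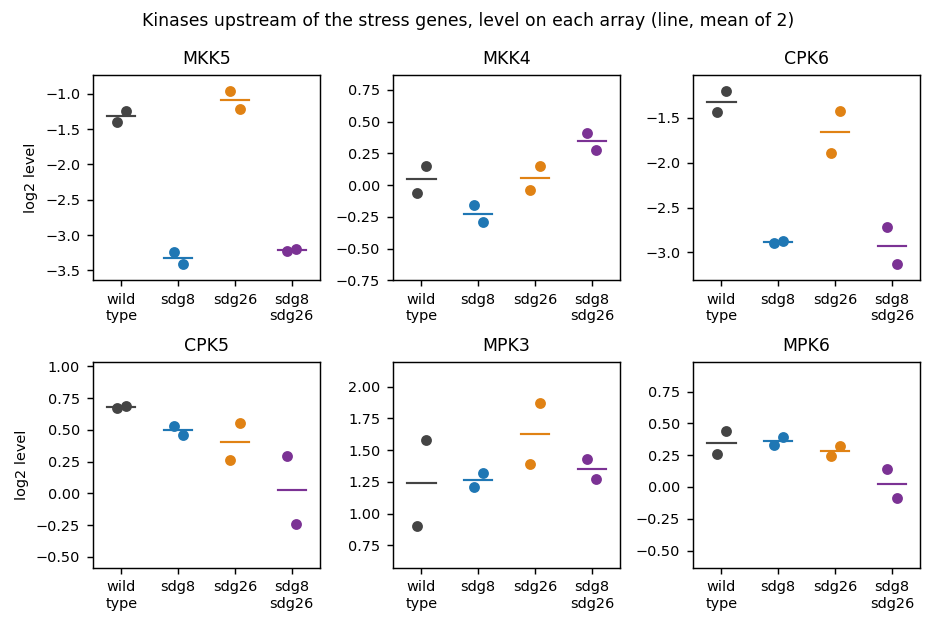
Log2 level (vertical axis, relative to the 75th percentile of the array) of 6 kinases that act upstream of the stress genes, by genotype; points are arrays, lines the mean of 2, and each panel has its own scale. MKK5 lies below -3 on all 4 arrays lacking SDG8 and above -1.5 on the others, and MKK4 shows no such gap.

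In the other lists of the pathway few genes passed the test. Of 12 measured cold signalling regulators 0 were called in any comparison, where 0.00485% to 6.25% of all genes were called. Their medians were -0.01 in sdg8 and -0.18 in sdg8 sdg26 against wild type. SR1 (CAMTA3, a calmodulin-binding activator of CBF genes) differed by 0.44 in sdg8 (adjusted p = 0.232), the SUMO ligase SIZ1 by -0.28 and the receptor-like kinase CRLK1 by -0.27. Of 16 measured other cold and dehydration genes 0 were called, against the same shares of all genes. LTI30, a dehydrin, differed by -0.75 in sdg8, GolS2, an enzyme of galactinol synthesis, by 0.89, and ERD7 by 0.55.

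Of 16 other calmodulin-like and XTH genes 1 rose, in sdg8 sdg26 against wild type, where 6.25% of all genes were called. XTR6, also named XTH23, a cell wall enzyme related to TCH4, was 1.81-fold higher in sdg8 sdg26 than in wild type (0.85 ± 0.19, adjusted p = 0.0487), a call lost under 11 of 18 alternatives. Of 19 relatives of the transcription factor genes 0 were called in any comparison, where 0.00485% to 6.25% of all genes were called. WRKY30 differed by -1.48 in sdg8 and -1.74 in sdg8 sdg26 against sdg26 (adjusted p = 0.151 and 0.116). WRKY70, of the salicylate response, differed by -0.43 in sdg8, and MYB51, a regulator of indole glucosinolate synthesis, by 0.50. Among 11 clock genes, which set the daily level of CBF genes, ELF4 alone was called, at 1.82 ± 0.40 in sdg8 sdg26 against wild type (adjusted p = 0.049), where 6.25% of all genes were called, and it lost the call under 16 of 18 alternatives.

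Markers of shoot, root and seed tissue also differed between the arrays. The 7 measured shoot markers had array medians from 4.43 to 5.52. In the 6 comparisons 0 of 7 were called, where 0.00485% to 6.25% of all genes were called. All 7 were below 0 in each mutant against wild type, with a median of -0.25 for sdg8, -0.24 for sdg26 and -0.22 with both mutations. The 12 measured root markers had medians of -4.35 and -4.04 on the wild-type arrays and -2.75 and -3.12 in sdg8 sdg26, where CASP1 and EXPA7 rose against wild type, by 0.97 and 1.71, calls lost under 14 and 5 of 18 alternatives. Root marker medians were -3.68 and -3.5 in sdg8, and -3.83 and -3.3 in sdg26. In sdg8 against wild type 8 of the 12 root markers were above 0 and 4 below, with a median of 0.16. Against that direction, the iron transporter IRT1 fell by 1.45 in sdg8. It rose by 2.17 in sdg8 sdg26 against sdg8 (limma adjusted p = 0.0169). Those calls were lost under 4 and 6 of 18 alternatives. The 15 seed markers had medians of 0.06 and -2.92 in wild type and -5.02 and -2.14 in sdg8. Their medians were -3.76 and -2.60 in sdg26, and -1.18 and -3.99 in sdg8 sdg26. FUS3, a seed regulator, was called at 2.38 in sdg8 sdg26 against sdg26, where 2.20% of all genes were called. That call was lost under 6 alternatives, and the sign was reversed under 1 more. In sdg8 against wild type FUS3 differed by 1.76, while 13 of the 15 seed markers were below 0. In sdg8, sdg26 and sdg8 sdg26 the array with more seed signal was also the one on which more of the 41 stress genes were higher (24, 38 and 34 genes), and in wild type it was the other array. The part of shoot, root or seed tissue in the differences of the stress genes was not tested.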

How the data were processed

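The authors scanned 8 single-colour arrays, 1 per sample, labelled with Cy3 from 0.5 ug RNA, and extracted spot intensity with Agilent software, Feature Extraction, whose version is 11.5.1.1 in the file headers and 9.1 in the submitters' processing notes. Background was subtracted in the processed signal intensity, per the file headers. A deposited table of log2 values from the authors served as an alternative; per array it differed from the values used here by medians of -0.0103 to -0.00674.

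From the processed signal, log2 minus the 75th percentile of each array's non-control spots was computed. Non-uniform spots were set to missing, spots of a probe averaged, and probes kept that, in 1 genotype or more, were well above background on each of its arrays. Of 36098 probes with a RefSeq accession 34285 (95.0%) matched a locus of the TAIR10.1 table, used for names only. The brightest kept probe stood for a gene, and 20615 genes were tested. Of the 41 genes described, 22 had 1 probe, and for 18 genes 23 further kept probes gave the opposite sign 5, 4, 7 and 3 times in sdg8, sdg26 and sdg8 sdg26 against wild type and sdg8 sdg26 against sdg26; SZF1, RRTF1 and CBF1 had 1 probe each.

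Differences were tested with limma 3.58.1 (R 4.3.3) in 1 fit over the 8 arrays, with genotype as factor, two-sided, with Benjamini-Hochberg adjustment in each of 6 comparisons. The median standard error was 0.167 for a difference and 0.236 for the interaction; the number of arrays limits the precision. The steps were tested on simulated data. In the 2 normexp alternatives (offset 50) the median signal took the place of the mean signal. The other alternatives were quantile normalization, the authors' table, 2 other filters, the mean over probes, fewer arrays, slide or replicate number as a block, and each array left out. Named genes were all members, the called genes of each other list, or else up to 3 with the smallest p in sdg8. The members and the lists were chosen with earlier results of these data known. Promoter sequence was not analysed here.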

Additional observations from a re-analysis of the deposited data

Results flagged for a closer look

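ZF2 (AZF2) met the criterion for opposite effects without a test that supports them. Both sdg8 arrays lay above both wild-type arrays (0.39), and both sdg8 sdg26 arrays below both sdg26 arrays (-0.19). Likewise sdg26 lay above wild type (0.32) and sdg8 sdg26 below sdg8 (-0.25). The interaction was -0.58 in either reading, with a limma adjusted p of 0.995, so the difference between these effects did not pass the test.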

How the results depend on the processing

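The number of the 41 genes called changed with the setting in 3 comparisons. In sdg8 against wild type, where 0 were called, normexp on each array's median background gave 1, probes well above background on all 8 arrays 2 (RRTF1 and DIC2), the arrays compared alone 1, and each array left out in turn 0 to 2. In sdg8 sdg26 against wild type, where 3 were called, normexp on the local background gave 0, normexp on the median background 7, the arrays compared alone 1, and each array left out 0 to 3. In sdg8 sdg26 against sdg26, where 0 were called, normexp on the median background gave 1 (WRKY33). Where 1 array is left out, the lone array of its genotype is taken to vary like the other groups. With the replicate block the counts were 0 and 3, as without it. The gene-by-gene differences between replicates 1 and 2 correlated between pairs of genotypes at -0.402 to 0.388 over 20497 genes. The numbers were therefore not taken to pair the samples. CPK6 in sdg8 sdg26 against sdg26 had a limma adjusted p of 0.0675 with the block. With normexp on the local background 0 of 20615 genes passed limma's test in each of the 6 comparisons, with 268 to 2145 at an unadjusted p under 0.05, and the median of all genes moved to -0.219 in sdg8 sdg26 against wild type and -0.29 in sdg8 sdg26 against sdg26; ELF4 (-0.34) and FUS3 (-1.17) changed sign there. Over all genes the count of 565 in sdg8 was 222 without the filter, 296 with normexp on the median background, 215 with the arrays compared alone and 349 with the replicate block, and the count of 1288 in sdg8 sdg26 was 727, 2109 and 500 under the first 3 of these. With 1 array left out they ran from 135 (without sdg8 replicate 1) to 486 and from 412 (without wild-type replicate 1) to 872, and the count of sdg8 sdg26 against sdg26 from 92 (without sdg26 replicate 1) to 347. The causes were not tested. Signal over background limits ZAT11, MYB15, CML38 and CBF2.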
